A study of Mus musculus with 4 samples.

Results

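The cytosolic ribosomal protein genes were read in single thymocytes of mice as 79 genes of the 31053 in the count tables. They are the genes whose symbol starts with Rpl or Rps and a digit, or with Rplp, and that had 20 or more transcript molecules over both libraries. Pseudogene-type symbols, the S6 kinases and 4 named genes (Rpl22, Rpl22l1, Rpl39 and Rpl39l) were set aside by that rule. Before the count minimum 81 symbols matched, and Rpl3l with 8 molecules and Rpl10l with 0 did not reach it. The member with the fewest molecules, Rps27rt, had 1456. By role, 41 members belong to the large subunit, 30 to the small subunit and 3 to the stalk (Rplp0, Rplp1 and Rplp2). The remaining members are 3 paralogs (Rpl7l1, Rpl36al and Rps27l), 1 retrogene copy (Rps27rt) and 1 gene, Rps19bp1, whose product binds a ribosomal protein but is no part of the ribosome. All 79 matched a RefSeq gene, on 19 chromosomes, with at most 14 on any one of them.

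Both gene expression libraries came from thymi of wild type mice that had been transplanted for 28 days, one in the condition named autonomy and one in the condition named turnover. In turnover a grafted thymus is repopulated by progenitors that arrive from the host, whereas in autonomy it is kept going by cells already inside it. The labels give the sorted population as DN3-DN4, ISP and double positive thymocytes, and they name no host strain, sex, age or number of pooled animals. There was 1 library per condition, so every difference below compares 2 libraries, no test over conditions can be made, and each interval is an exact 95% interval that covers counting error only. Molecules were counted as unique molecular identifiers (UMIs) of a 5′ droplet assay, which tags a transcript once whatever its length.

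Ribosomes are built from a large and a small subunit, each a folded ribosomal RNA that carries many different proteins. The proteins are needed in near equal amounts, and their mRNAs are among the most abundant of a dividing cell. Most of these mRNAs begin with a terminal oligopyrimidine (TOP) tract, a run of C and T letters at the 5′ end through which the TOR kinase and the protein LARP1 control their translation and stability. In the thymus, cells that have passed β-selection divide fast as ISP and early double positive cells, and then stop dividing and shrink to small resting double positive cells.

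Barcodes with 1000 or more UMIs numbered 4414 in autonomy and 4227 in turnover, with 16260384 and 20057936 UMIs and a median of 2430.5 and 2112 UMIs per cell. Another 173 barcodes in autonomy and 147 in turnover were under that minimum. The libraries share 31 barcode sequences. A doublet caller marked 0 cells in autonomy and 2 in turnover, so it did not work here and no cell was removed. The autonomy library held 1781 cells with Xist and no Y-linked transcripts and 934 with Y-linked and no Xist transcripts, so it mixes cells of both sexes, whereas the turnover library held 0 and 2459. Stage names were rebuilt from clusters and marker levels, with the ribosomal protein genes left out of the clustering. All 8 double positive markers were detected in the small resting DP-like class of both libraries. Rag1, Cd4 and Cd8a among them were used to name that class. All 8 were also detected in the cycling class of both libraries, so detection is no separate support for the name. A class led by mature single positive markers, a stage outside the labelled sort, held 128 cells in autonomy and 2 in turnover.

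Ribosomal protein transcripts took a smaller share of all UMIs in autonomy than in turnover. The 79 members together made up 14.8% of UMIs in autonomy and 21.5% in turnover, a ratio of 0.690 (0.689 to 0.691). The 2 libraries differ in their mix of stages, since cycling cells gave 25.6% of the UMIs in autonomy and 58.0% in turnover. The share was therefore read within each stage. In the cycling ISP/DP-like class it was 19.8% in autonomy and 24.9% in turnover, a ratio of 0.794 (0.792 to 0.796). In the small resting DP-like class it was 10.3% in autonomy and 15% in turnover, a ratio of 0.688 (0.685 to 0.690). Both stages thus lay below 1, and the ratio was lower among the resting cells than among the cycling ones.

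The share pooled over the cells of a stage followed the same order in both libraries, with the mature class left aside. In autonomy it was 23.2% in the Il2ra-high cluster, 19.8% in cycling, 10.3% in small resting, 13.9% in post-selection-like and 29.1% in mature single positive-like cells. In turnover it was 29.4% in the Il2ra-high cluster, 24.9% in cycling, 15% in small resting and 16% in post-selection-like cells, and the mature class had too few cells to read. The Il2ra-high cluster, which was not given a cell type because gamma-delta constant region genes lead it, had 8 cells in autonomy and 124 in turnover, with a ratio of 0.787 (0.775 to 0.799). The post-selection-like class, marked by Itm2a, Nr4a1, Egr1, Cd5 and Cd69, had 416 cells in autonomy and 400 in turnover. Its ratio was 0.871 (0.865 to 0.876). Over single cells its median share was 10.4% in autonomy and 13.6% in turnover. Small resting cells had medians of 9.27% and 14%, so by medians the order of these stages differed between the libraries. A cluster with Dtx1 and Ptcra among its leading genes and a cluster led by Lypd1 and Pcsk1 held 666 and 149 cells in autonomy and 44 and 3 in turnover, and they were read together as Dtx1-led cells (815 in autonomy, 47 in turnover). There the share was 10.3% in autonomy and 15% in turnover, a ratio of 0.685 (0.673 to 0.697).

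**Figure D1:**
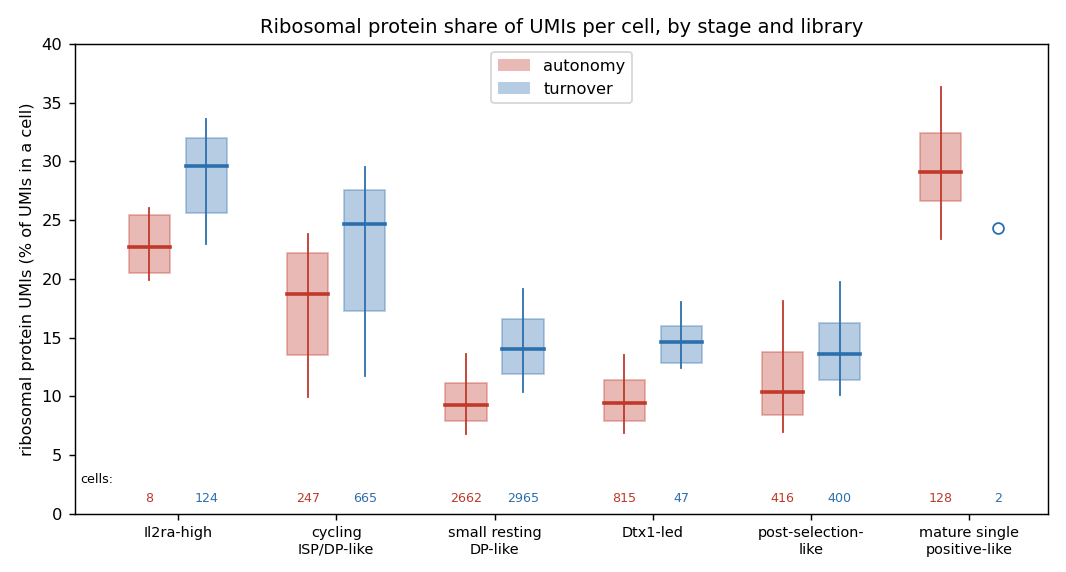
Share of a cell's UMIs that came from the 79 ribosomal protein genes (vertical axis, percent), by stage (horizontal axis) in autonomy (red, left) and turnover (blue, right). Thick lines are medians over cells, boxes run over the middle 50% of cells, thin lines run between the 10% and 90% points, an open circle is the median of 2 cells, and the numbers at the foot are cells. In small resting cells the medians were 9.27% in autonomy and 14% in turnover.

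Cell by cell, the libraries were shifted rather than split. Among small resting cells the median share was 9.27% in autonomy, with quartiles of 7.86% and 11.1%, and 14% in turnover, with quartiles of 11.9% and 16.6%. Of the 2662 small resting cells in autonomy, 2421 (90.9%) lay below the turnover median. Among cycling cells the medians were 18.7% in autonomy and 24.7% in turnover, and 234 of the 247 autonomy cells lay below the turnover median. A small resting cell held on average 255 ribosomal protein UMIs in autonomy and 309 in turnover, beside 2217 and 1748 UMIs of all other genes. In this class fewer ribosomal protein molecules were thus recovered per cell in autonomy, and more molecules in all. Among cycling cells the averages were 3330 ribosomal protein UMIs in autonomy and 4360 in turnover, beside 13500 and 13149 UMIs of other genes. Post-selection-like cells went the other way, with 563 ribosomal protein UMIs in autonomy and 475 in turnover, beside 3482 and 2496 UMIs of other genes. Cells are not replicates, and these values describe the 2 libraries.

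The spread between cells was wider than counting alone gives. The SD of the share over small resting cells was 2.92 percentage points in autonomy and 3.39 in turnover, whereas counting error would give 0.613 and 0.794. Large and small subunit shares went up and down together across cells, with a Pearson correlation of 0.90 in autonomy and 0.87 in turnover over small resting cells, and of 0.98 and 0.99 over cycling cells. These correlations describe cells of a single library that share its depth and its total. The share was also higher in cells with more UMIs. The Spearman correlation was 0.46 in autonomy and 0.57 in turnover among small resting cells, and 0.76 and 0.70 among cycling cells.

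Because of that link the share was set side by side at like depth. Among small resting cells with 1000 to 2000 UMIs it was 8.47% in autonomy and 13% in turnover, a ratio of 0.650, over 742 and 1751 cells. Between 2000 and 4000 UMIs it was 10.3% in autonomy and 16.8% in turnover, a ratio of 0.612, over 1767 and 1145 cells. Between 4000 and 8000 UMIs it was 13.6% in autonomy and 17.1% in turnover, a ratio of 0.792, over 150 and 68 cells. All 3 of these depth ranges lay below 1. Cycling cells were less even: with 4000 to 8000 UMIs the share was 14% in autonomy and 14.8% in turnover, a ratio of 0.947 over 27 and 108 cells. With 8000 to 16000 UMIs it was 15.5% in autonomy and 20.5% in turnover, and with 16000 or more it was 22.0% in autonomy and 27.1% in turnover.

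**Figure D2:**
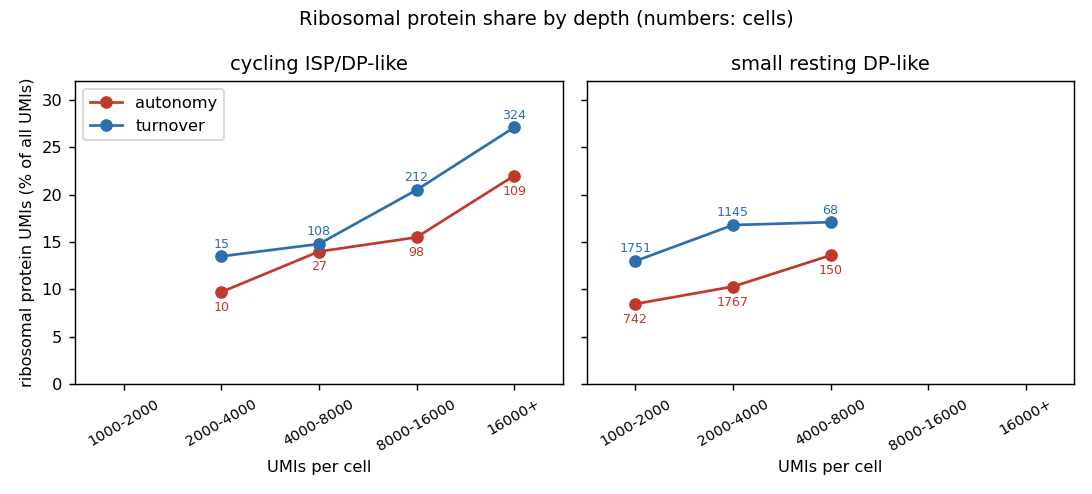
Share of UMIs from ribosomal protein genes (vertical axis, percent of all UMIs in the cells of a point) by UMIs per cell (horizontal axis), in cycling (left panel) and small resting cells (right panel) of autonomy (red) and turnover (blue). Numbers beside points are cells, and points with under 10 cells are not drawn. Every autonomy point lies below its turnover point, with the smallest gap among cycling cells of 4000 to 8000 UMIs (14% in autonomy, 14.8% in turnover).

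The small resting class is made of 6 clusters, and the share was lower in autonomy in each. In the 4 clusters that held most of its cells it was 8.68% in autonomy and 13% in turnover (cluster 0), 8.89% and 13.5% (cluster 1), 13.1% and 18.4% (cluster 2) and 10.4% and 14.7% (cluster 3). Cluster 2 is led by Slc7a11 and Insl5, and it had the highest share of the 6 in both libraries. The cluster led by interferon response genes such as Isg15 and Ifit1 held 216 cells in autonomy and 50 in turnover, and its share was 11% in autonomy and 15.1% in turnover. Without that cluster the class had a ratio of 0.683. Interferon markers summed over the class were at 520 CPM (counts per 1e6 UMIs of the class) in autonomy and 135 CPM in turnover, with all 5 detected in each, and their part in the result was not tested. Markers of DN3 cells, the stage at which β-selection takes place, summed to 938 CPM in autonomy, with 7 of 8 detected, and to 121 CPM in turnover, with 6 of 8, and in cycling cells to 891 CPM in autonomy and 203 CPM in turnover, with 8 of 8 in each. Macrophage markers, a sign of transcripts from other cells, summed to 21.1 CPM in autonomy, with 9 of 9 detected, and to 11.5 CPM in turnover, with 5 of 9. Mitochondrial UMIs had a median of 2.57% per small resting cell in autonomy and 2.96% in turnover. The part of these transcripts in the result was not tested.

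Sex and clone composition also differ between the libraries and were set beside the share. In small resting cells of autonomy it was 10.5% in cells with Xist alone and 10.6% in cells with Y-linked transcripts alone. Turnover cells with Y-linked transcripts had 15.3%. In cycling cells of autonomy it was 19.3% with Xist alone and 21.1% with Y-linked transcripts alone, over 162 and 54 cells. Cycling turnover cells with Y-linked transcripts had 25.4%. The 10 largest T cell receptor beta clones of autonomy held 741 cells. In the 9 of these clones with 10 or more small resting or Dtx1-led cells the share ran between 8.38% and 13.4%, with a median of 10.5%. Autonomy cells outside those clones had 10.2%, against 15% in turnover, over 2869 and 3012 cells. No clone of that group of 9 reached the pooled turnover share.

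Gene by gene, the difference ran through the whole set. Over all cells, each of the 79 members had a ratio of autonomy over turnover below 1 or at 1.0, with a median log2 ratio of −0.53. The median gene stood at 0.30 on the same log2 scale over genes with 20 or more UMIs and at 0.23 over those with 1000 or more, so the members lay below a bulk of genes that was itself shifted upward. A size of 1.5-fold lower was reached by 31 members, and 0 were 1.5-fold higher. Of all 11674 genes compared, 8.99% were 1.5-fold lower and 33.4% were 1.5-fold higher, and of the 5150 with 1000 or more UMIs, as every member had, 5.88% were lower and 27.3% were higher. That count depends on the cells that enter and on the scaling. It was 56 without the mature and macrophage-transcript clusters and 8 among cells with 3000 or more UMIs. When the libraries were scaled by TMM factors in place of total UMIs it was 72. TMM scaling multiplied the ratio of every gene by 0.822, and the share of all genes that passed was not counted under these settings.

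Within stages the members stayed together. In cycling cells 76 members lay below 1, the median log2 ratio was −0.34, and 2 members were 1.5-fold lower and 0 were higher, where 6.55% of 10113 genes were lower and 22.9% were higher. Of the 2254 genes with 1000 or more UMIs in these cells, 1.29% were lower and 11% were higher. In small resting cells 77 members lay below 1, the median log2 ratio was −0.53, and 25 were 1.5-fold lower and 0 were higher, where 6.22% of 10221 genes were lower and 23.9% were higher. Of the 2519 genes with 1000 or more UMIs, 3.29% were lower and 15.2% were higher. Under TMM scaling the counts of lower members became 12 in cycling and 65 in small resting cells. Among resting cells with 3000 or more UMIs the count was 12. The share of all genes that passed was not counted under these settings either. In post-selection-like cells 73 lay below 1, and 1 member was lower and 1 was higher by 1.5-fold, where 7.54% of genes were lower and 22.7% were higher (2.23% and 6.01% of genes with 1000 or more UMIs). The median gene with 1000 or more UMIs stood at a log2 ratio of 0.04 in cycling, 0.06 in small resting and −0.15 in post-selection-like cells, and the median gene with 20 or more at 0.17, 0.15 and 0.11. In post-selection-like cells the median of the members, −0.19, was thus close to that of all genes counted as well. Those 449 genes include 75 of the members, so they are not a separate background.

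**Figure D3:**
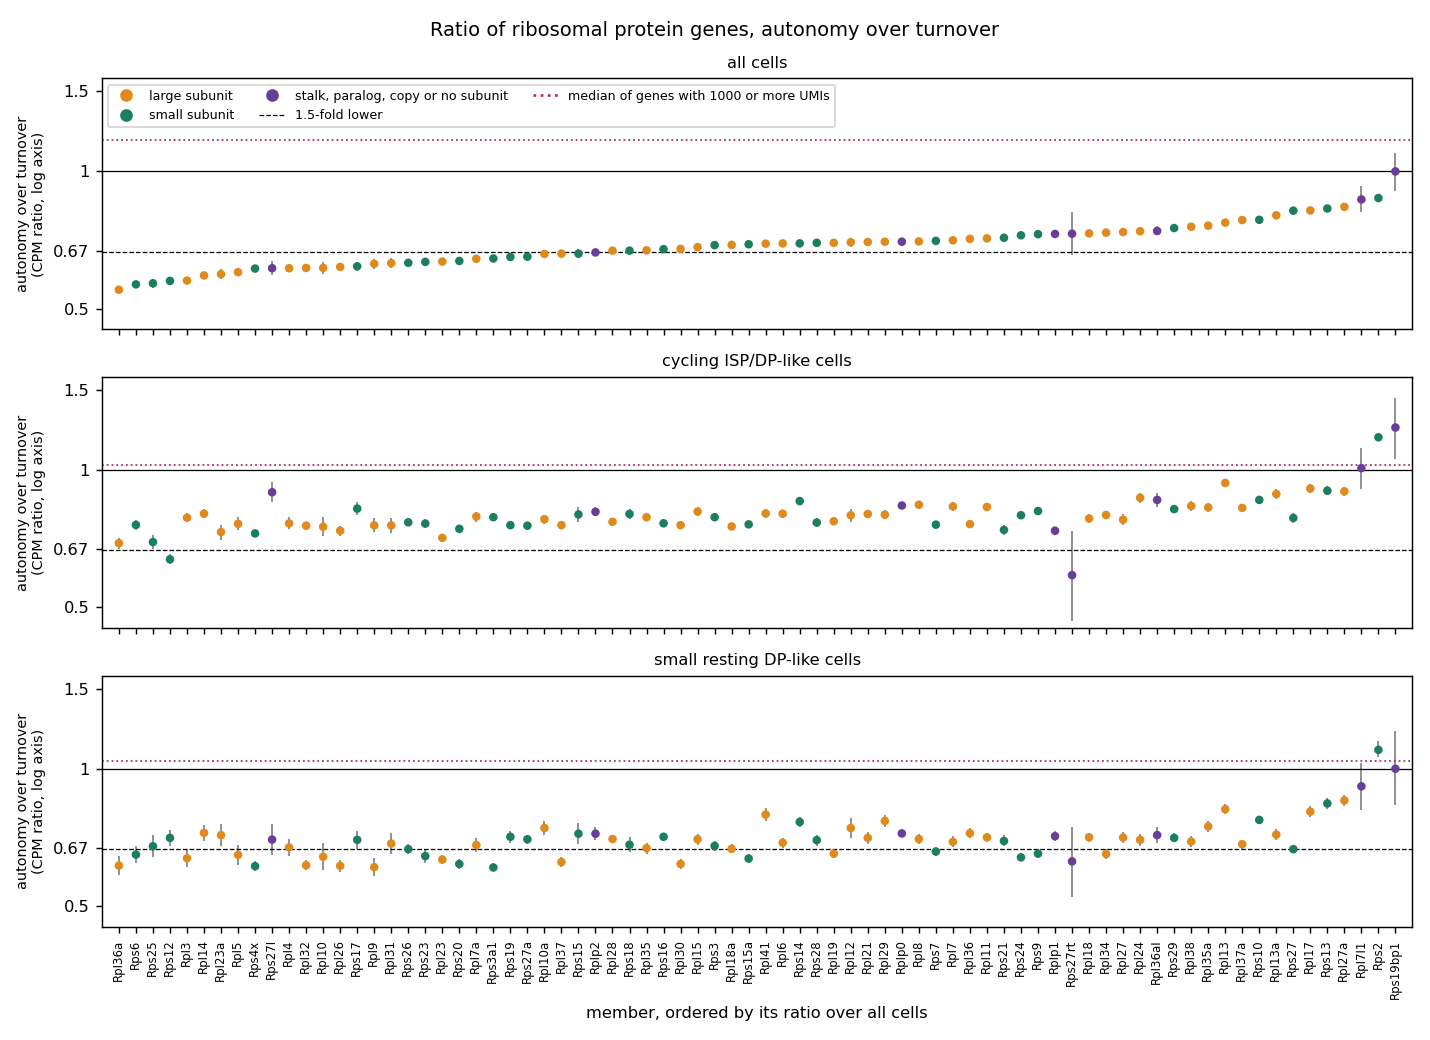
Ratio of CPM, autonomy over turnover (vertical log axis), of the members drawn, in all cells, cycling cells and small resting cells, with members ordered along the horizontal axis by their ratio over all cells. Vertical lines are exact 95% intervals of counting error, the dashed line is 1.5-fold lower, the dotted line is the median of genes with 1000 or more UMIs, and colours are the roles. Most points fall between the dashed line and 1 in cycling cells and close to the dashed line in small resting cells, and Rps2 stands above 1 in both (1.18 and 1.10, the second 0.995 under TMM scaling).

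The large and the small subunit moved alike. Large subunit genes summed to 7.20% of UMIs in autonomy and 10.4% in turnover, a ratio of 0.692 (0.691 to 0.694), and small subunit genes to 6.73% and 9.82%, a ratio of 0.686 (0.684 to 0.687). The ratios in small resting cells were 0.692 for the large and 0.679 for the small subunit, and in cycling cells they were 0.797 and 0.789. With the stalk counted as part of the large subunit, its molecules stood to those of the small one as 1.19 to 1 in autonomy and 1.17 to 1 in turnover over all cells. The stalk, which recruits the elongation factors to the ribosome, summed to a ratio of 0.701 over all cells, 0.802 in cycling and 0.718 in small resting cells.

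Among large subunit genes, Rpl36a had the lowest ratio of all members over all cells. This X-linked gene encodes a protein near the exit site for tRNA, and it was at 937 CPM in autonomy and 1700 CPM in turnover (15239 and 34168 UMIs), a ratio of 0.550 (0.540 to 0.561). Its ratio was 0.691 in cycling, 0.613 in small resting and 0.932 in post-selection-like cells. Rpl3, whose protein reaches into the peptidyl transferase centre, was at 1350 CPM in autonomy and 2340 CPM in turnover, a ratio of 0.576 (0.567 to 0.585). Rpl14, Rpl23a (a protein at the tunnel exit) and Rpl5 (which carries the 5S RNA into the ribosome) followed at 0.591, 0.595 and 0.601. That order was not kept within stages. Rpl14 stood at 0.802 in cycling and 0.723 in small resting cells, above the 0.794 and 0.688 of the summed members. Rpl23a stood at 0.731 and 0.715, and Rpl5 at 0.762 and 0.647. At the other end stood Rpl27a at 0.836, with 1960 CPM in autonomy and 2340 CPM in turnover, Rpl17, a protein of the exit tunnel, at 0.821 and Rpl13a at 0.801. Rpl13 had the highest ratio of a large subunit gene in cycling cells, at 0.937 (0.922 to 0.952). Rpl32 and the X-linked Rpl10, which joins the large subunit late in its assembly, both stood at 0.614 over all cells. The lowest large subunit gene in small resting cells was Rpl9, with 430 CPM in autonomy and 706 CPM in turnover, a ratio of 0.608.

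Among small subunit genes, Rps6, the classic substrate of the S6 kinases, was at 978 CPM in autonomy and 1730 CPM in turnover, a ratio of 0.565 (0.554 to 0.576). Its ratio within stages was 0.758 in cycling and 0.648 in small resting cells. Rps25, which some viral and cellular internal ribosome entry sites need, was at 554 CPM in autonomy and 977 CPM in turnover, a ratio of 0.568. Rps12, known from flies as the protein through which cells with a ribosomal protein mutation are recognised in cell competition, was at 1280 CPM in autonomy and 2220 CPM in turnover, a ratio of 0.575 (0.566 to 0.585). Rps12 was the lowest of the subunit genes in cycling cells, with 1880 CPM in autonomy and 2950 CPM in turnover, a ratio of 0.637 (0.622 to 0.653). Its ratio was 0.705 in small resting and 1.01 in post-selection-like cells, so the order of members was not the same at every stage. Among the lowest in small resting cells were Rps3a1, a protein of the mRNA exit site, at 0.607 and the X-linked Rps4x at 0.611. Rps13 and Rps27 stood highest after Rps2 over all cells, at 0.829 and 0.820. Within stages Rps13 stood at 0.901 in cycling and 0.839 in small resting cells. Rps27 stood at 0.785 and 0.666, below the 0.794 and 0.688 of the summed members.

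Rps2 was the one subunit gene with more CPM in autonomy in both main stages. Its protein lines the channel through which mRNA enters the small subunit. In cycling cells it was at 4670 CPM in autonomy and 3960 CPM in turnover, a ratio of 1.18 (1.16 to 1.20). In small resting cells it was at 896 CPM in autonomy and 811 CPM in turnover, a ratio of 1.10 (1.06 to 1.15), which became 0.995 under TMM scaling. In post-selection-like cells it was at 2520 CPM in autonomy and 1580 CPM in turnover, a ratio of 1.59 (1.5 to 1.68), and it was the single member 1.5-fold higher there. As a part of all ribosomal protein UMIs, Rps2 took 2.36% in autonomy and 1.59% in turnover in cycling cells, and 0.868% and 0.540% in small resting cells. Over all cells, where the stages are mixed in different parts in the 2 libraries, its ratio was 0.874.

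Rplp0, Rps24, Rps16 and Rps3a1 were among the members with the most UMIs. Rplp0, the base of the stalk, had 63765 UMIs (3920 CPM) in autonomy and 112255 UMIs (5600 CPM) in turnover, a ratio of 0.701 (0.694 to 0.708). Rps24 stood at 0.724, Rps16 at 0.675 and Rps3a1 at 0.644, so well counted members differed among themselves. The partners of Rplp0 in the stalk, Rplp1 and Rplp2, stood at 0.729 and 0.664.

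The paralogs and the gene outside the ribosome varied more widely. Rpl7l1, a relative of Rpl7, was at 95.1 CPM in autonomy and 109 CPM in turnover, a ratio of 0.868 (0.813 to 0.927), and at 1.01 in cycling cells, where TMM scaling gave 0.896. Rpl36al, an autosomal relative of Rpl36a, was at 807 CPM in autonomy and 1090 CPM in turnover, a ratio of 0.740, against the 0.550 of Rpl36a. Rps27l, a relative of Rps27 known as a target of p53, stood at 0.613 over all cells but at 0.894 in cycling and 0.699 in small resting cells. Rps19bp1 was at 44.2 CPM in both libraries, a ratio of 1.0 (0.905 to 1.10), and at 1.24 (1.06 to 1.44) in cycling cells. Under TMM scaling Rps19bp1 was at 0.821 over all cells. How well the counting told the reads of a paralog from those of its relative was not tested, so the paralog values are uncertain.

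**Figure D4:**
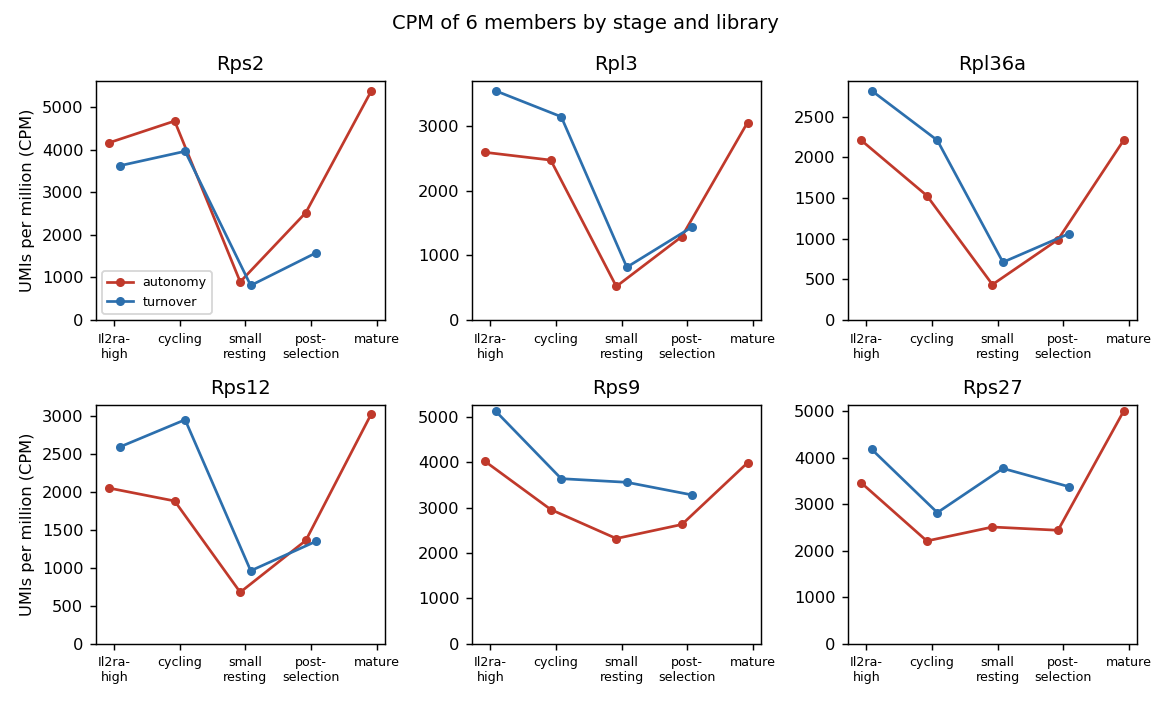
CPM (counts per 1e6 UMIs of the class, vertical axis from 0) of 6 members at 5 stages along the horizontal axis, in autonomy (red) and turnover (blue), with 1 library behind each point and turnover left out at the mature stage (2 cells). Cells of all depths are pooled, and depth per cell differs between stages. Rps2, Rpl3, Rpl36a and Rps12 are low in small resting cells and higher before and after, whereas Rps9 and Rps27 vary less between stages, and for Rps2 the autonomy points lie above those of turnover at the 4 shared stages (in small resting cells TMM scaling gave a ratio of 0.995).

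Pooled over cells of all depths, the stages differed more than the conditions. The summed share in small resting cells was 0.522 (0.520 to 0.524) times that of cycling cells in autonomy and 0.603 (0.602 to 0.605) times in turnover. In autonomy 65 members were 1.5-fold lower in small resting than in cycling cells and 0 were higher, where 19.1% of genes were lower and 49.6% were higher (21.9% and 41.0% of genes with 1000 or more UMIs). In turnover 52 were lower and 0 were higher, where 19.3% were lower and 49.7% were higher (24.0% and 37.5% of genes with 1000 or more UMIs). The median gene with 1000 or more UMIs had a ratio of 1.25 in autonomy and 1.18 in turnover, and the median gene with 20 or more had 1.49 in both. All members other than Rps27 and Rps27rt had a ratio below 1 in both libraries. These 2 stages come from the same library, but depth per cell differs between them. A cycling cell had a median of 14802 UMIs in autonomy and 15725 in turnover, and a small resting cell 2294 and 1881. With every cell thinned to 1000 UMIs the ratios were 0.559 in autonomy and 0.649 in turnover. Thinning keeps the expected share of each cell, so it does not compare stages at like depth. With 4000 to 8000 UMIs the share was 13.6% in small resting and 14% in cycling cells of autonomy (150 and 27 cells). In turnover it was 17.1% and 14.8% (68 and 108 cells). With 2000 to 4000 UMIs it was 10.3% and 9.73% in autonomy and 16.8% and 13.5% in turnover, on 10 and 15 cycling cells. In these ranges the stage gap was thus small or reversed.

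Members differed from each other in this step by much more than between conditions. These stage ratios pool cells of all depths, and single members were not compared between stages at like depth. Rps2 was at 896 CPM in small resting and 4670 CPM in cycling cells of autonomy, a ratio of 0.192 (0.187 to 0.198), and at 811 and 3960 CPM in turnover, a ratio of 0.205 (0.199 to 0.211). Rpl3 was at 519 CPM in small resting and 2470 CPM in cycling cells of autonomy, a ratio of 0.210, and its ratio in turnover was 0.259. Rpl14 stood at 0.270 in autonomy and 0.299 in turnover, and Rpl36a at 0.285 and 0.322. These 4 genes were the lowest of the set in both libraries. At the other end Rps27 was at 2510 CPM in small resting and 2210 CPM in cycling cells of autonomy, a ratio of 1.14 (1.11 to 1.16), and at 3770 and 2820 CPM in turnover, a ratio of 1.34 (1.31 to 1.36). The ratio of Rps27 is thus under the 1.25 of the median gene with 1000 or more UMIs in autonomy and above the corresponding 1.18 in turnover. Rps9, a protein that bears on the accuracy of decoding, stood at 0.784 in autonomy and 0.98 in turnover, and Rpl27 at 0.739 and 0.815. Over the 77 members with 1000 or more UMIs in these cells, the stage ratios of the 2 libraries had a Pearson correlation of 0.98 and a Spearman correlation of 0.98, given as a description of genes measured in the same kinds of cells.

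**Figure D5:**
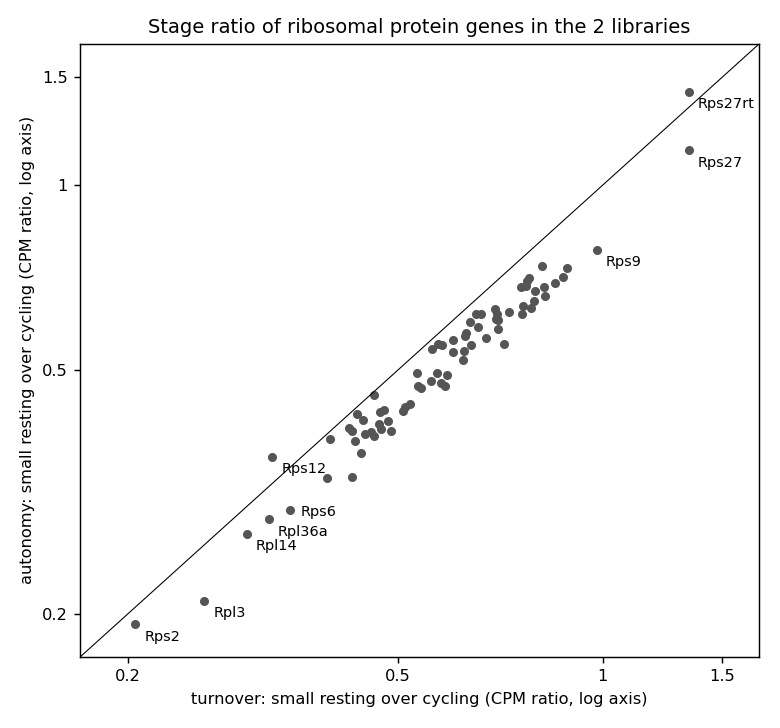
Ratio of small resting over cycling cells for the members drawn, in autonomy (vertical log axis) and turnover (horizontal log axis), with the line of equal values. Cells of all depths are pooled. Rps2 lies at the low end (0.192 in autonomy, 0.205 in turnover) and Rps27 and Rps27rt at the high end, and most points lie below the line, while Rps12 (0.360 in autonomy, 0.326 in turnover) and Rps27rt lie above it.

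Rps27rt, a retrogene copy, had the highest stage ratio, at 1.42 (1.11 to 1.83) in autonomy and 1.34 (1.16 to 1.55) in turnover, on 312 and 777 UMIs. The start regions of Rps27rt and Rps27 share an identical run of 38 bases. Some 5′ reads could thus fit both genes, and the values of Rps27rt are uncertain. In cycling cells it was at 23.1 CPM in autonomy and 39.3 CPM in turnover, a ratio of 0.588 (0.467 to 0.735) beside the 0.785 (0.767 to 0.803) of Rps27, and this turned to 1.35 with cells thinned to 1000 UMIs. The first 30 bases of the shared run, in capitals because they are identical in Rps27 on chromosome 3 and Rps27rt on chromosome 9, read as follows.
Rps27 and Rps27rt: CTTTCCGGCGGTGACGACCTCCCTACGAGA

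Since TOP tracts mark this gene class, the start regions of the members were searched for one. The search took a run of 7 or more letters, each C or T and the first a C, on the strand of the gene, between 20 bases before and 50 bases after the start in the RefSeq promoter table (GRCm38.p6). Of the 79 members 59 had an entry, and 46 of those (78.0%) held such a run, against 29.4% of the 27025 symbols in the table. Members with and without a run did not stand apart: the median log2 ratio of autonomy over turnover was −0.56 over 46 members with one and −0.52 over 13 without one, and in cycling cells it was −0.34 for both. Among small resting cells it was −0.55 with and −0.52 without a run. A run of letters is a description of the window and not a measured start of transcription. Runs were taken anywhere in the window, and that of Rps2 begins at base 41 counted from the start. The split therefore does not separate TOP mRNAs from others and cannot decide whether they differ.

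The windows of members from both ends of the stage range are shown, with the run in capitals, and were chosen among members that hold one. Rpl3, with a low stage ratio, had no entry. Rps2 (chr17:24720083-24720112, plus strand), Rpl14 (chr9:120571501-120571530, plus strand) and Rpl36a (chrX:134585673-134585702, plus strand) had low stage ratios. Rps9 (chr7:3704025-3704054, plus strand) and Rps27 (chr3:90213631-90213660, minus strand) had high ones. Rps12 (chr10:23787181-23787210, minus strand) and Rps6 (chr4:86857349-86857378, minus strand) were among the lowest between conditions, and Rpl27a (chr7:109519186-109519215, plus strand) among the highest.
Rps2: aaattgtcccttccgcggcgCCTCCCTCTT
Rpl14: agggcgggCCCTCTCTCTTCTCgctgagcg
Rpl36a: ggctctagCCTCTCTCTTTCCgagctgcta
Rps9: aaccgccttgtCTCTCTTTgtctcgggcct
Rps27: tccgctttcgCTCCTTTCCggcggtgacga
Rps12: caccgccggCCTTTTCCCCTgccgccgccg
Rps6: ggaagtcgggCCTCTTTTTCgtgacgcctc
Rpl27a: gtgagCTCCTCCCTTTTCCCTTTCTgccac

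Other genes of the translation machinery were read as lists. Among ribosomal protein genes with other symbols, Rpsa stood at 0.618, Rack1 at 0.672 and Fau at 0.844 over all cells. Of 20 translation factors and other TOP genes, 5 were 1.5-fold lower and 0 were higher over all cells, where 8.99% of all genes were lower and 33.4% were higher, and the median of the list was −0.35. The lower ones were Npm1 (a nucleolar chaperone, 0.481), Eef1b2 (0.615), Eef1g (0.634), Hnrnpa1 (0.660) and Eef1a1, the factor that brings tRNA to the ribosome (0.665). Others of that list were above 1, among them the elongation factor Eef2 at 1.11 and the poly(A)-binding protein Pabpc1 at 1.33. In cycling cells the list had 0 lower and 1 higher (Eif3f, 1.59) with a median of −0.08, and in small resting cells 3 lower and 0 higher with a median of −0.41. Of all genes 6.55% were lower and 22.9% higher in cycling cells, and 6.22% and 23.9% in small resting cells.

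Genes that build ribosomes did not share this position within stages. Of 26 ribosome biogenesis factors, 4 were 1.5-fold lower and 1 was higher over all cells, with a median log2 ratio of −0.21, where 8.99% of all genes were lower and 33.4% were higher. In cycling cells 0 were lower and 3 were higher, with a median of 0.05, and in small resting cells 0 were lower and 5 were higher, with a median of 0.06. Those counts of higher genes are no larger a part of the list than the 22.9% and 23.9% of all genes that were higher in these classes. Among the higher ones, Rrs1 was at 1.88 in cycling and 2.32 in small resting cells, Bop1 at 1.77 and 1.71, and Gar1, a part of the snoRNP that modifies ribosomal RNA, at 1.59 and 1.76. Of 11 genes of RNA polymerase I, which transcribes ribosomal RNA, 0 passed 1.5-fold in either direction in all, cycling or small resting cells, with medians of −0.19, 0.01 and −0.21.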

How the data were processed

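Sorted thymocytes were profiled with a 5′ droplet kit and a T cell receptor enrichment. Per the submitters' processing notes, Cell Ranger 3.0.2, Seurat 3.1.3.9002 and mm10 were used. The authors deposited raw counts of UMIs per gene and cell barcode, and receptor annotations, used here to define clones. Counts of kept cells were summed per library and class and divided by the class total (CPM). Ratios are autonomy over turnover, with exact conditional binomial intervals. With 1 library per condition, a 1.5-fold size rule replaced a test. Cells were clustered with scanpy 1.11.5 (2000 variable genes centred per library, 30 components, 15 neighbours, Leiden resolution 1). Marker thresholds for class names were set after the data were seen, and rebuilt names may differ from the study's. Scaling alternatives used edgeR 4.0.16 and DESeq2 1.42.0 factors. The summing and ratio steps were tested on simulated data. Free RNA in droplets was not estimated. The members and gene lists were chosen with earlier results of these data known. Named genes were the extremes by ratio in all, cycling and resting cells and between stages, the most counted members, the paralogs, and 10 well-known members. Further members and genes of the lists were named after their values were seen. A few members and related genes are not reported here by name.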

Additional observations from a re-analysis of the deposited data

How the results depend on the processing

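Every alternative kept the summed share lower in autonomy. Under TMM scaling its ratio was 0.567 over all, 0.705 in cycling and 0.619 in small resting cells, with 72, 12 and 65 members 1.5-fold lower, and under median-of-ratios scaling it was 0.562, 0.705 and 0.620, with 72, 12 and 65. With cells thinned to 1000 UMIs the ratios were 0.688, 0.786 and 0.678, 5 members were lower in cycling cells, the ratio of Rps27rt in cycling cells turned to 1.35, and small resting over cycling was 0.559 in autonomy and 0.649 in turnover. Among barcodes with 3000 or more UMIs the ratio was 0.768 over all and 0.734 in small resting cells, with 8 and 12 members lower, and the stage ratios were 0.658 in autonomy and 0.713 in turnover. Without the 4% highest doublet scores the ratio over all cells was 0.693. Cells with Y-linked and no Xist transcripts gave 0.694, 0.833 and 0.695, with 1 member lower in cycling cells. Without the 10 largest autonomy clones the ratios were 0.703, 0.799 and 0.685. Without the mature and macrophage-transcript clusters the ratio over all cells was 0.628, with 56 members lower. Leiden resolution 0.5 gave 0.683 in small resting cells and 0.519 for the stage ratio in autonomy, resolution 2 gave 0.672 and 0.511, and leaving out the interferon-led cluster, chosen after seeing the data, gave 0.683 and 0.519. The cause of these shifts was not tested, and the share of all genes that passed 1.5-fold was not counted for any alternative. Counting the Dtx1-led clusters as small resting, also chosen after seeing the data, gave 0.687, with 26 members lower. No paired analysis was possible because each condition has 1 library. The intervals hold counting error only, so differences between animals, grafts or runs cannot be told apart from the condition, and members under 2000 UMIs, Rps27rt and Rps19bp1, are the least precise.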

Other observations

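Mitochondrial ribosomes have their own proteins, encoded by nuclear genes named Mrpl and Mrps. Of 78 such genes, 4 were 1.5-fold lower and 2 were higher in autonomy over all cells, where 8.99% of all genes were lower and 33.4% were higher, and the median log2 ratio of the list was −0.31. In cycling cells 0 were lower and 3 were higher with a median of −0.07, and in small resting cells 6 were lower and 2 were higher with a median of −0.20. Of all genes 6.55% were lower and 22.9% higher in cycling cells, and 6.22% and 23.9% in small resting cells. Mrpl53 and Mrpl38 stood above 1 over all cells, at 1.72 and 1.55, and Mrpl42 stood lowest of those that passed, at 0.619. In cycling and small resting cells Mrpl53 stood at 1.69 and 1.54, Mrpl38 at 1.52 and 1.58, and Mrpl42 at 0.821 and 0.829. The lowest in small resting cells was Mrps5, at 0.594. The noncoding snoRNA hosts Snhg6 and Snhg12 were at ratios of 0.756 and 0.779 over all cells, and other hosts were not analysed here. In cycling cells Snhg6 was at 0.927 (0.812 to 1.05) and Snhg12 at 0.866 (0.74 to 1.01). In small resting cells Snhg6 was at 0.854 (0.712 to 1.02) and Snhg12 at 0.837 (0.689 to 1.02).

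Of 19 measured genes that regulate ribosomal protein genes through MYC, TOR or promoter binding, 1 was 1.5-fold lower and 5 were higher over all cells, with a median log2 ratio of 0.37 beside 0.30 for the median gene. As a part of the list the higher ones are fewer than the 33.4% of all genes that were higher, and 8.99% of all genes were lower. The higher ones were the MYC antagonists Mxd4 (3.42), Mnt (2.11) and Mxi1 (1.82), the TORC1 subunit Rptor (2.50) and the transcription factor Yy1 (1.59). In cycling cells 1 of 19 was 1.5-fold lower and 4 were higher, with a median of 0.27. Of all genes there 6.55% were lower and 22.9% were higher. Mxd4 stood there at 1.97, Rptor at 1.96, Yy1 at 1.53 and Mycn at 1.81 (0.767 to 4.1), Mycn on 11 and 17 UMIs. Mnt at 1.22 (0.711 to 2.02) and Mxi1 at 1.33 (0.953 to 1.84) did not pass. In small resting cells 1 of 18 was lower and 4 were higher, with a median of 0.24. Of all genes there 6.22% were lower and 23.9% were higher. Mxd4 stood at 2.28, Mnt at 2.06, Rptor at 2.05 and Yy1 at 1.58, whereas Mxi1 stood at 1.44. Eif4ebp1, an inhibitor of cap-dependent translation, stood at 0.631 (0.43 to 0.919), on 49 UMIs in autonomy and 72 in turnover. Myc itself was at 0.801 over all and 1.20 in cycling cells. In small resting cells Myc had 49 UMIs in autonomy and 50 in turnover, and its ratio of 0.908 (0.6 to 1.37) is imprecise.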
